A study of Mus musculus with 8 samples.

Results

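Binding of 3 nuclear factor I (NFI) proteins inside coding exons was described in 413 regions of the mouse genome. Peaks of 6 lists that overlapped by 1 bp or more were merged into 46070 regions, of which 31380 held peaks of 2 or more libraries. The 413 are those whose midpoint lay in a coding exon and more than 1 kb from every transcription start site (TSS) of a protein-coding or long noncoding RNA gene. They lay in 394 host genes, 19 of which held 2 regions. The regions were chosen by the presence of peaks, so how many libraries held each, and how high the peaks were at the limit, is a description and carries no test. Under the same rule 13116 regions lay elsewhere in protein-coding genes, mostly intronic, and 14468 lay outside them.

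The peaks come from ChIP-seq, which sequences DNA bound by a precipitated protein, of NFIA, NFIB and NFIX. The cells were cerebellar progenitors of granule neurons at postnatal day 7, with 2 libraries per factor. One, called CD1 here, came from outbred CD1 mice, and the other, called Mixed, from mice whose mixed background was labelled as similar to CD1. No genotype or treatment differed between groups, so the comparisons here are between kinds of sequence, between factors and between backgrounds. NFIA was precipitated with Abcam ab41851 and NFIX with Sigma Aldrich SAB1401263. For NFIB the sample labels name Novus NBP1-81000 and the design text names Sigma HPA003956. Progenitors were obtained by papain dissociation, and peaks give no expression level with which to check cell identity. The labels do not give the animals behind a library, so a p-value here covers only the spread among these 6 samples, which may be technical. Where 6 values stand in a row they are CD1 then Mixed for NFIA, followed by NFIB and by NFIX.

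NFI proteins bind DNA as dimers, and a full site is a palindrome in which each arm contacts one subunit. A single arm is also bound, more weakly. In the cerebellum these factors act in granule neuron progenitors and in their maturation. A site inside a coding exon is read in 2 ways, as a binding element and as codons of a protein.

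The full site, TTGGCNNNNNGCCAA, is rare in coding sequence, and the exons that hold it within the regions are shown first. Coding exons more than 1 kb from a TSS held 11 copies. Of these, 7 lay in a peak of some library and 6 lay in the 413 regions. Each is printed 5′ to 3′ on the strand of its gene, in mm10 (GRCm38), with the site in capitals.
Brd7: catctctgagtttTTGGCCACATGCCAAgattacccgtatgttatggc
Il21r: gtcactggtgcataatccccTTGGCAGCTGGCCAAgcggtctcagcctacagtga
Dag1: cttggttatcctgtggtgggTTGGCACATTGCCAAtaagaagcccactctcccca
A2m: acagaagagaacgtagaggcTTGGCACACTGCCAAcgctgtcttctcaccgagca
Nck1: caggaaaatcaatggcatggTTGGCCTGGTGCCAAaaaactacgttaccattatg
Mecom: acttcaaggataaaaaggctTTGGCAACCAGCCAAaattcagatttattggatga
The printed stretches are chr8:88339473-88339520 (Brd7, minus strand), chr7:125632435-125632489 (Il21r, plus strand), chr9:108209025-108209079 (Dag1, minus strand), chr6:121647994-121648048 (A2m, plus strand), chr9:100497447-100497501 (Nck1, minus strand) and chr3:29957481-29957535 (Mecom, minus strand). Brd7 encodes a bromodomain subunit of a chromatin remodelling complex, Dag1 the cell surface receptor dystroglycan, and Nck1 an adaptor of receptor signalling to actin. Il21r encodes a cytokine receptor, A2m a secreted protease inhibitor and Mecom a zinc finger factor. The Brd7 region had a peak in all 6 libraries, with folds of 11.95 (NfiA CD1), 25 (NfiA Mixed), 16.2 (NfiB CD1), 13.01 (NfiB Mixed), 22.8 (NfiX CD1) and 20.9 (NfiX Mixed). NfiA Mixed was highest and NfiA CD1 lowest. Fold is the enrichment at the peak summit as the authors' peak caller gave it. Brd7 was the only region that combined all 6 libraries with a full site. Il21r and Dag1 had peaks in 5 libraries, A2m and Nck1 in 3, and Mecom in 2, with folds of 4.53 to 8.61 across these 5 regions. The median distance from site to summit was 3 to 24 bp in these 6 regions. In Brd7 the exon has 112 coding bases, and the summit of highest rank lay beside it, outside the coding part.

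Shorter copies of the palindrome were more frequent. The inner letters TGGCNNNNNGCCA, called the short palindrome below, occurred 681 times in coding exons more than 1 kb from a TSS. The 413 regions held 57 of these copies, in 55 regions. Among the 25 regions with the highest mean percentile of fold, 10 held a short palindrome. Of these, 6 are shown, and 4 of the 6 share 1 sequence. The other 2, Angptl7 and Sim2, had summits a median of 3.5 and 6.5 bp from the site. Syne2, with a median of 5 bp, is not printed.
Chd9: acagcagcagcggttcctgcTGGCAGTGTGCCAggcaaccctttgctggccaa
Clpx: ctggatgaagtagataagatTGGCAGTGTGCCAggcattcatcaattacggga
Zxdc: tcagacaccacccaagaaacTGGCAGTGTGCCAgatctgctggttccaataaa
Nhlrc2: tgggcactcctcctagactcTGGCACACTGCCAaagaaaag
Angptl7: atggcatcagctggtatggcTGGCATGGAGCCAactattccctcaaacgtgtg
Sim2: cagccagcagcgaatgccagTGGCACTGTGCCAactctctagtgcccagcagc
They come from chr8:91051211-91051263 (Chd9, plus strand), chr9:65318674-65318726 (Clpx, plus strand), chr6:90382317-90382369 (Zxdc, plus strand), chr19:56588229-56588269 (Nhlrc2, plus strand), chr4:148496191-148496243 (Angptl7, minus strand) and chr16:94123448-94123500 (Sim2, plus strand). Chd9 encodes a chromodomain helicase, Clpx the ATPase of a mitochondrial protease, Zxdc a zinc finger protein, Sim2 a developmental transcription factor and Angptl7 a secreted angiopoietin-like protein. Chd9, Clpx and Zxdc carry TGGCAGTGTGCCA in the reading direction, and Nhlrc2 carries its reverse complement, as does the full site of A2m. This sequence, on either strand, occurred 8 times in coding exons away from a TSS. Of the 8, 6 lay in a peak and 5 in the regions. It was picked out after the values were seen, as the sequence with the most copies in the regions. In Nhlrc2 the site lay a median of 75.5 bp from the summits, against 3.50 to 16.0 bp in the other 5 printed here.

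Bases beyond the short palindrome went with how often a copy was bound. The full site adds a T before and an A after these letters, and a symmetric NFI site also has A and T as the first and last of the 5 middle bases. Copies were sorted by how many of these 4 positions matched, which the rule did not use. With 0 matches, 12 of 270 copies lay in a peak of any library (4.44%). With 1 match the share was 9.56% (26 of 272), with 2 it was 24.8% (29 of 117) and with 3 it was 63.2% (12 of 19). Both copies that matched at 4 positions lay in a peak. The shares in peaks rose with each match in NfiA CD1, from 0.741% to 4.04, 10.3, 52.6 and 100%. In NfiX CD1, the shortest list, they were 0, 2.21, 9.40, 36.8 and 50%.

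The middle bases and the outer bases were then compared separately. Copies with both middle bases lay in a peak in 25% of cases in both NfiA libraries, 20.8% in both NfiB libraries, and 20.8% (CD1) and 29.2% (Mixed) for NfiX (48 copies). With neither middle base the shares were 2.09, 3.93, 5.497, 4.71, 0.524 and 2.62% (382 copies), so the share was higher with both middle bases in 6 of 6 libraries and the ranges did not overlap. The mean difference was 20.4 ± 4.21 percentage points (SD, n = 6 libraries), with an exact p of 0.0312 by two-sided sign-flip permutation, the lowest that 6 libraries can give. With both outer bases the mean share was 37.9% (11 copies), and with neither 3.18% (466 copies). That difference was 34.7 ± 13.2 points, higher in 6 of 6 libraries (exact sign-flip permutation p = 0.0312). Both comparisons were chosen after the first values were seen. All 6 libraries were scored on the same copies, so neither the SD nor the p-value covers the spread among copies.

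**Figure D1:**
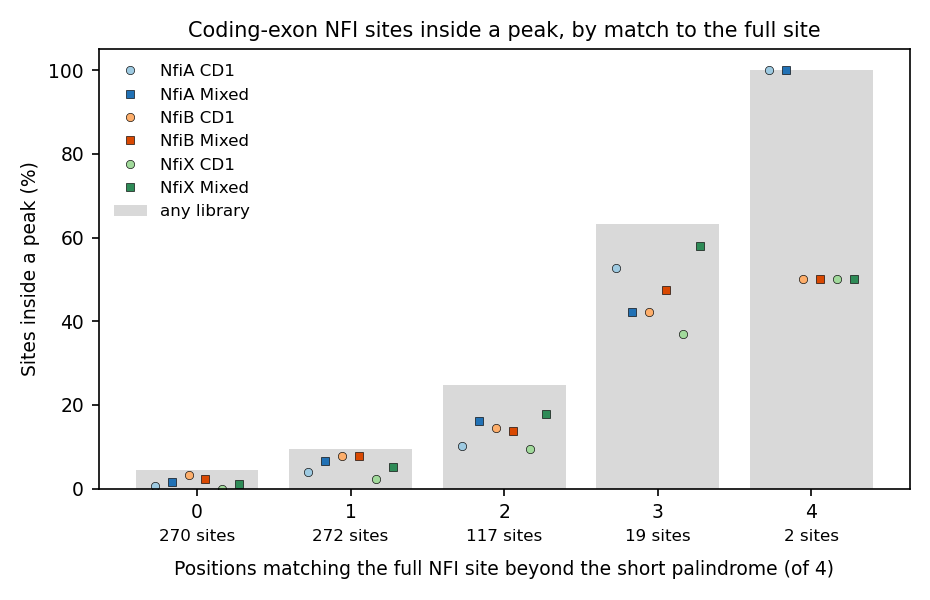
Percentage of short palindromes in coding exons that lie inside a peak (vertical axis), by how many of 4 further positions match the full NFI site (horizontal axis, with the number of copies). Bars stand for a peak in any library and points for single libraries; the bars rise from 4.44% with 0 matches to 63.2% with 3, and the class of 4 matches holds only 2 copies.

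The frame in which a site sat in the protein code was similar for bound copies and for all copies. Of the 57 short palindromes in the regions, 14 began at codon position 1, 28 at position 2 and 15 at position 3. All 681 copies in coding exons were spread 169, 317 and 195 over these positions. The share of copies that lay in the regions was 8.28%, 8.83% and 7.69%. No test was made of these shares.

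Summits were then compared with peak-free coding sequence of the same genes. Windows reaching 50 bp to each side of the summits of each library were read where they lay inside 1 exon, which held for 54.1 to 64.1% of the regions with a peak. The exon could be of any annotated transcript, so a summit window need not be wholly coding. The controls were windows of the same width in coding exons of the same genes that touched no peak. The short palindrome was present at 19.6, 8.68 and 30.3% of summits in the CD1 libraries of NFIA, NFIB and NFIX, and at 12.99, 10.2 and 18.05% in the Mixed ones. Controls held it in 0.218 to 0.293% of windows, so the 2 ranges did not overlap. NfiX CD1, with 33 windows and the shortest list, was highest, and the NfiB libraries, with the longest lists, were lowest. On the log2 scale the odds ratio of summits against controls had a mean of 6.08 ± 0.73 (SD, n = 6; exact permutation by sign flips, Benjamini-Hochberg adjusted p = 0.0312 over 6 elements). It was 3.97 against windows 1 kb to each side of the summits, and with narrower or wider windows it was 6.99 or 5.21, each higher at summits and past the threshold. Every region had peaks in 2 or more libraries, so here and for the elements below the 6 values share sequences. These p-values do not cover the spread among regions.

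The single arm TTGGCA was found at 28.8 to 51.5% of summits and 6.68 to 7.23% of control windows. Its log2 odds ratio was 2.87 ± 0.46, higher in 6 of 6 libraries (n = 6; exact permutation, adjusted p = 0.0312). E-boxes, the elements of neural basic helix-loop-helix factors, were also more frequent at these summits. The palindromic E-box CAGCTG was present at 28.4% ± 2.97 of summits and 9.31 to 10.7% of control windows (log2 odds ratio 1.85 ± 0.24, n = 6; exact permutation, adjusted p = 0.0312). CAGATG was present at 24.2% ± 3.84 and 9.86% ± 0.134 (1.55 ± 0.28, n = 6; exact permutation, adjusted p = 0.0312). All elements were searched on both strands. An E-box can overlap an NFI site, as CAGCTG does in the full site of Il21r printed above. GC content was 55.7 to 57.6% at summits and 52.0 to 54.6% in controls, and its part in these differences was not tested.

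**Figure D2:**
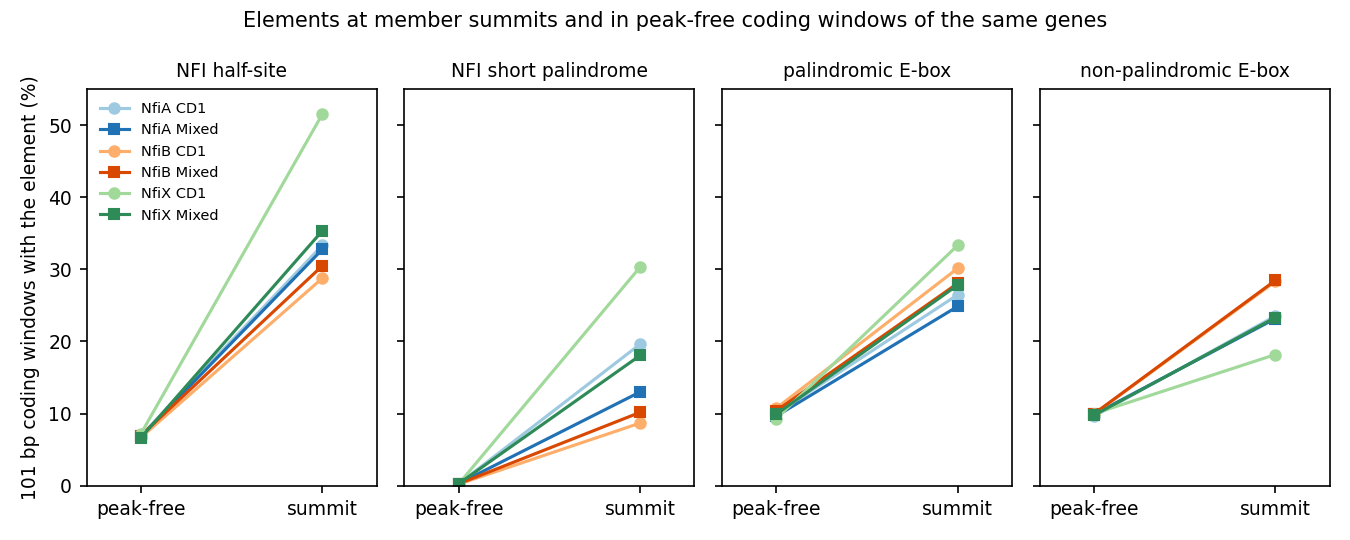
Percentage of windows, 50 bp to each side of their centre, that hold each element (vertical axis). Peak-free windows are coding sequence of the same genes, and summit windows lie inside 1 exon but need not be wholly coding. Each line joins the values of 1 library. The palindromic E-box is CAGCTG and the other CAGATG. All 6 lines rise in each panel. At summits NfiX CD1 is the highest for both NFI elements and, at 18.2%, the lowest for the non-palindromic E-box.

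The full site gave few windows. It was present at 1 to 3 summits in each library and in 0 of 1203 to 5119 control windows. The same arms set 8 bases apart, TTGGCNNNNNNNNGCCAA, served as a control, and no summit window held it. In all coding exons away from a TSS 23 copies of this control occurred and 0 lay in a peak. The odds ratio of the full site (log2 6.99 ± 0.27) and that of the control (4.26 ± 0.79) rest on the 0.5 added to each cell, since control windows far outnumber summit windows. Both passed (n = 6; exact permutation, adjusted p = 0.0312), so this test is not informative for either, and the counts are given in its place. With the added count split by window numbers, chosen after the values were seen, they were 5.77 (exact permutation p = 0.0312) and −0.17 (exact permutation p = 1).

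Distances from sites to summits can reach no further than the 50 bp of a window, and no value for randomly placed sites was computed. The nearest full site was a median of 7.50 bp from the summit (14 windows), and the nearest short palindrome 11.0 bp (121 windows), of which 81.8% were within 25 bp. The single arm lay at 19.0 bp (294 windows), CAGCTG at 18.5 bp (254 windows) and CAGATG at 22.5 bp (234 windows). Windows of different libraries over 1 region are counted apart here, so these numbers describe summits and not independent sites.

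**Figure D3:**
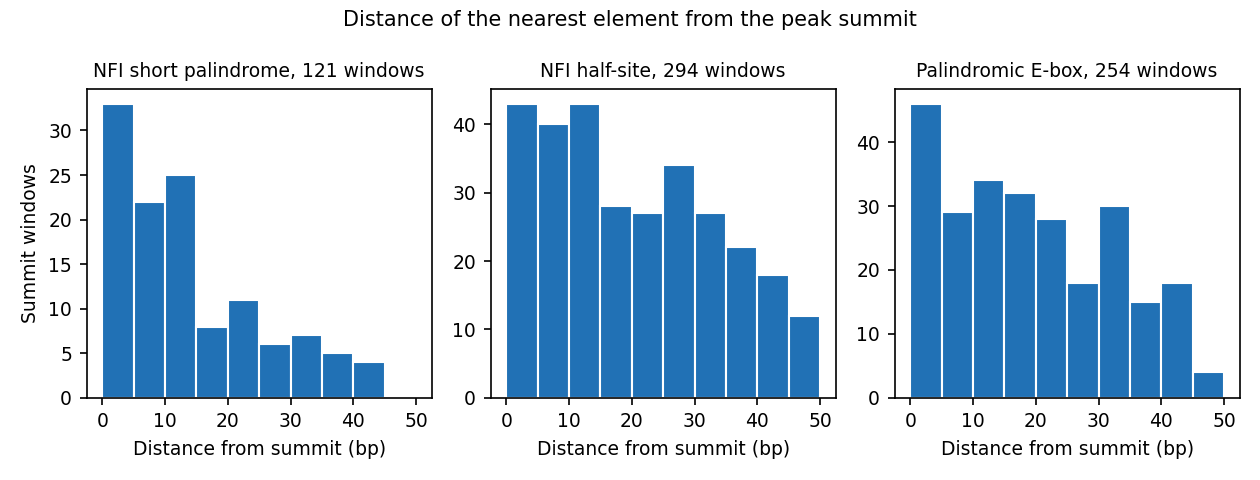
Distance in bp from the peak summit to the nearest element (horizontal axis) against the number of summit windows (vertical axis), for the short palindrome, the single arm (NFI half-site) and the palindromic E-box CAGCTG. The short palindrome has a median of 11.0 bp, and the other panels have medians of 19.0 and 18.5 bp.

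A peak of all 6 libraries was present in 45 regions, 10.9% against 20.4% of all regions of 2 or more libraries away from a TSS, and these held the short palindrome most often. It was in the coding part of 35.6% of them (16 of 45), against 8.70% of regions in 2 libraries (10 of 115), 11.4% in 3, 10.5% in 4 and 12.9% in 5. The median coding part was of like length in each class, 183 to 206.5 bp. Single arms were in 38.3% of regions of 2 libraries and 57.8% of regions of 6, while CAGCTG was in 42.6% and 40%. No NFI site of either kind was found in the coding part of 196 regions, which says only that these letters are not there. Bases of flanking introns were not read.

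The strongest regions lay in genes of varied function. By mean percentile of fold within the lists, a library without a peak counting as 0, the first was in Atf7, which encodes a bZIP transcription factor and overlaps Gm28047. Its folds were 15.35 and 16.5 for NFIA, 17.6 and 16.97 for NFIB, and 13.1 and 18.03 for NFIX, each CD1 then Mixed. This region (chr15:102546572-102547898) was 1327 bp wide around an exon with 114 coding bases, and no summit fell in that exon. Of the 25 strongest, 3 had no summit in a coding exon, namely Atf7, Pogk and Sgsm2, and 19 had their best summit in one.

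Chd9, next after Atf7 and Brd7, had folds of 14.01, 16.03, 11.95, 11.8, 10.25 and 19.1. Its region (chr8:91050993-91051467) lay in the last of 38 coding exons, and 76.8% of it was coding. Zdhhc21, which encodes a palmitoyltransferase, had folds of 13.3, 12.8, 23.1, 17.6, 7.57 and 10.9. Here both NfiB libraries were highest and NfiX CD1 lowest. Fat2, a giant cadherin of cerebellar granule cells, had folds of 12.5, 11.4, 20.04, 20.01, 8.92 and 8.52, again highest in both NfiB libraries. Its region (chr11:55261729-55262628) had its midpoint in coding exon 18 of 23, and 63% of it was coding. A second, weaker region of 3 libraries lay in exon 17.

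Certain orders of the libraries recurred among the other strong regions. In Clpx the folds were 8.76, 13.5, 13.6, 8.35, 11.3 and 18.9, and in Zxdc 6.38, 10.8, 8.26, 7.57, 8.73 and 18, so NfiX Mixed stood highest. Syne3, which encodes a nesprin of the nuclear envelope, had 7.96, 9.45, 7.12, 5.91, 8.355 and 17.4, and NfiX Mixed was again the highest. Thsd7a had 15.6, 13.6, 17.4, 14.01, 6.39 and 15.2, and Ptk2b, which encodes a focal adhesion type kinase, 10.4, 8.56, 15.0, 13.4, 5.39 and 6.78. There NfiB CD1 stood highest and NfiX CD1 lowest. Folds of different lists were scaled separately, so these orders describe the deposited values and no factor preference was tested.

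Angptl7, Cntnap2 (a cell adhesion protein), Dpyd (pyrimidine breakdown), Brca1 (DNA repair), Gfra2 (a neurturin receptor), Sim2, Syne2 (a nesprin), Pogk, Fnbp1l (membrane curvature), Sgsm2, Chd7, Nhlrc2 and Myh13 (a myosin heavy chain) also had peaks in all 6 libraries. Cat, which encodes catalase, and Chia1, a chitinase, lacked a peak only in NfiX CD1. Median folds over the libraries with a peak were 7.17 to 18.6 in these 25 regions. In 14 of the 25 the NfiX CD1 fold was the lowest of the 6.

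**Figure D4:**
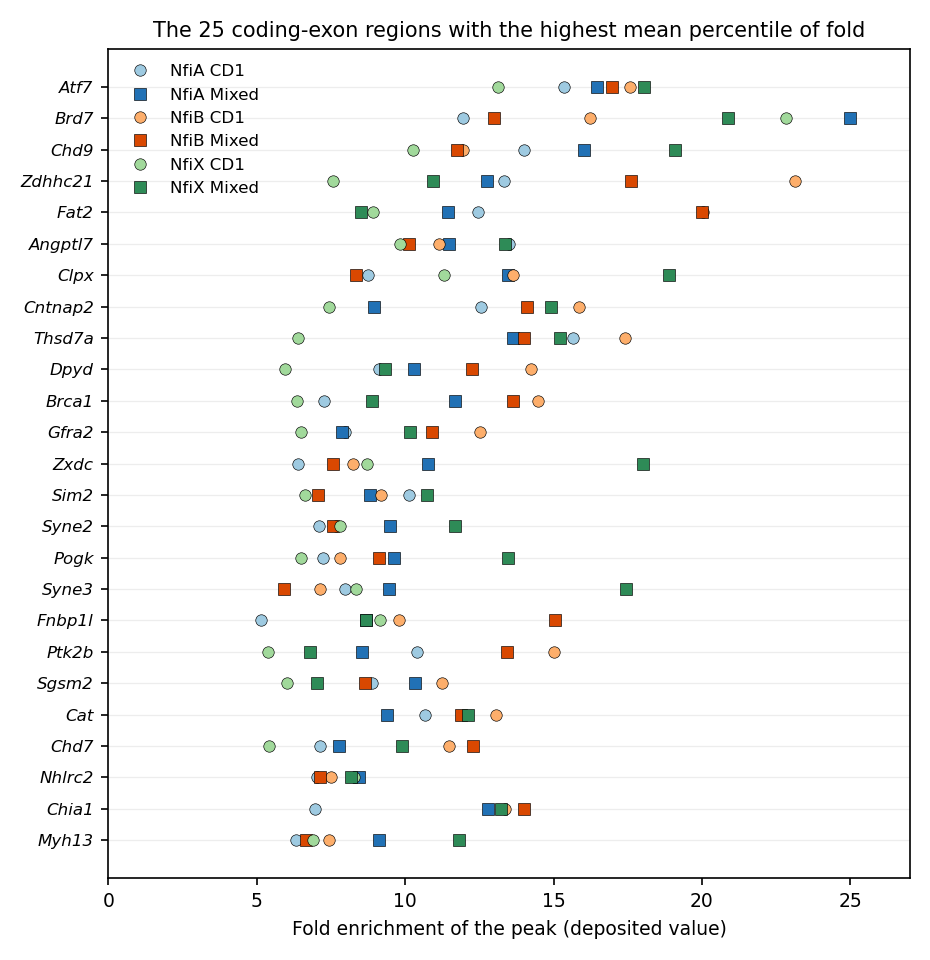
Deposited fold enrichment (horizontal axis) in each of the 6 libraries, 1 point per library, for the 25 regions with the highest mean percentile of fold, ordered from the top and named by host gene. The spread between libraries within a gene is wide, as in Zdhhc21 with 7.57 to 23.1, and Cat and Chia1 have no NfiX CD1 point.

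As a set the regions were weaker than other distal regions. The median percentile of fold within a list was 40.6 and 39.1 for NFIA, 47.5 and 46.8 for NFIB, and 50.2 and 43.9 for NFIX, each CD1 then Mixed. Other regions of 2 or more libraries away from a TSS had medians of 53.1, 54.5, 62.4, 59.2, 51.4 and 54.3. The coding value was lower in 6 of 6 libraries, by a mean of −11.1 ± 5.20 percentile points (SD, n = 6; exact permutation p = 0.0312). The libraries share regions, so the p-values of strength in this paragraph do not cover the spread among regions. NfiX CD1 differed by −1.17 points, the least of the 6. Against other regions of protein-coding genes, mostly intronic, a mean difference of −8.59 missed the threshold (n = 6, exact permutation p = 0.0625), since NfiX CD1 turned to 0.92 points higher in coding exons. Against regions outside genes it was −13.4 (exact permutation p = 0.0312).

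Fewer of the regions were shared by all libraries. All 6 lists shared 45 of the 413 (10.9%), against 18.9% of other genic regions and 21.9% of regions outside genes. The 2-library class held 115 regions (27.8%), and 88, 95 and 70 had 3, 4 and 5 libraries. Among regions of all 6 libraries the coding ones were still lower in percentile of fold, by −4.85 ± 3.66 points (lower in 6 of 6, n = 6 libraries; exact permutation p = 0.0312), a comparison added after the first values were seen. NfiA Mixed (−0.24) and NfiX CD1 (−0.39) hardly differed, and the other libraries differed by −5.43 to −8.67 points. All 6 libraries were scored on the same 45 coding regions, so this p-value does not cover the spread among regions. Regions were a median of 364 bp wide, against 401 bp for other genic regions.

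**Figure D5:**
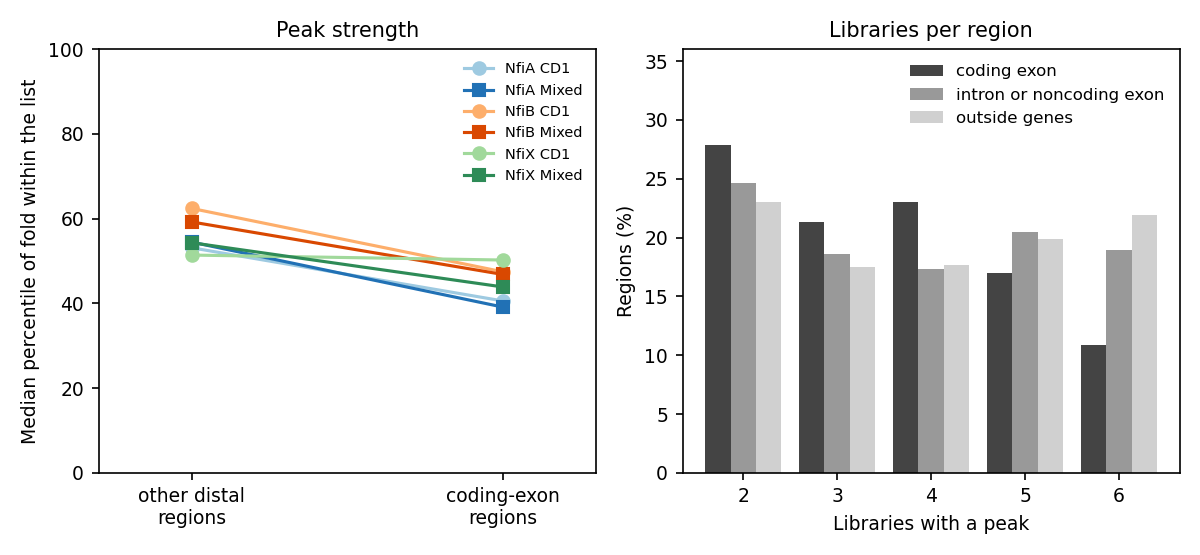
Left, median percentile of fold within each list (vertical axis) for other distal regions and for coding-exon regions, with 1 line per library. Right, percentage of regions (vertical axis) by number of libraries with a peak (horizontal axis). All 6 lines fall, that of NfiX CD1 by only 1.17 points, and 10.9% of coding-exon regions had all 6 libraries.

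At the threshold of 2 libraries there was no gap in strength. Coding regions of exactly 2 libraries had a median fold of 4.15, and the 223 left out with a peak in 1 library had 4.18. Another 238 coding regions were left out for lying within 1 kb of a TSS. Nearest inside that limit were regions in Dgcr2 (1023 bp), BC034090 (1027 bp) and Mier2 (1039 bp), and nearest outside it were March8 (990 bp), Taf4 (983 bp) and 1700069L16Rik (970 bp).

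NFIB, with the longest lists, had a peak in most of the regions. The CD1 libraries of NFIA, NFIB and NFIX had a peak in 170, 364 and 61 regions, and the Mixed libraries in 288, 384 and 227. For CD1 these are 41.2, 88.1 and 14.8% of the regions, against 52.3, 90.2 and 22.6% of other genic regions. For Mixed they are 69.7, 93.0 and 54.96%, against 71.3, 90.4 and 63.7%. Both NfiB libraries and NfiA Mixed were thus within 3 percentage points of other genic regions, and NfiA CD1 and both NfiX libraries were lower. The lists themselves held 16993, 36431 and 7497 peaks for CD1 and 23541, 33283 and 21443 for Mixed. All 3 factors had a peak in 194 regions (47.0%), against 55.6% of other genic regions. NFIA and NFIB without NFIX accounted for 116 (28.1%, against 21.8% of other genic regions) and NFIB alone for 65 (15.7% against 13.1%). NFIB and NFIX accounted for 31 (7.51% against 7.53%) and NFIA and NFIX for 6 (1.45% against 1.56%), shares close to those of other genic regions. NFIA alone accounted for 1 and NFIX alone for 0. No test was made of these shares.

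The regions made up a small share of each list. They held 1.03, 0.999 and 0.840% of the CD1 peaks of NFIA, NFIB and NFIX, and 1.24, 1.17 and 1.09% of the Mixed peaks. Each pair of factors gave an exact two-sided permutation p of 0.667, where 2 libraries against 2 cannot go below 0.333. Mixed exceeded CD1 in 3 of 3 factors, by a mean of 0.208 percentage points (exact permutation p = 0.25 by sign flips, the smallest that 3 factors allow). Antibody, list length and factor cannot be told apart here.

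Per base, coding exons and other genic sequence away from a TSS were compared without a test. Coding exons held 16.3 regions per Mb, over 25.3 Mb, and other sequence of protein-coding genes held 14.2 per Mb, over 926 Mb. Between 1 and 2 kb from a TSS the values were 15.6 and 12.9 per Mb, between 2 and 5 kb 12.7 and 12.3, between 5 and 20 kb 17.2 and 13.9, and beyond 20 kb 20.2 and 15.2. Exons of 100 bp or less held 9.30 regions per Mb of coding sequence, and those of 100 to 150 bp held 14.1. Exons of 150 to 200 bp held 20.2, those of 200 to 500 bp 20.3, those of 500 to 1000 bp 19.5 and longer ones 15.7, so the middle lengths were highest. The rule takes the midpoint, and 285 regions were wider than their exon. Of the 413, 88 lay wholly in coding sequence. The last coding exon held 110 regions, 26 of them in genes with a single coding exon. Last exons of genes with more than 1 coding exon held 20.3% of regions, against 18.5% of coding bases. Single coding exons held 6.3%, against 5.14% of coding bases, so both shares were close to those of coding bases.

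Wnt signalling genes held the most of the larger lists. Frizzled proteins are the receptors of Wnt ligands, and Tcf factors carry the signal to genes. Of 23 listed Wnt genes 7 held a region (30.4%), against 1.82% of all protein-coding genes, a share that rises with coding length from 0.489% of genes under 1 kb to 13.2% of those over 8 kb. The median coding length of the Wnt list was 1.93 kb, and 1.62% of all genes with 1 to 2 kb held a region. No test was made because the lists were chosen with results known. Fzd7 had peaks in 5 libraries, with folds of 4.99 and 7.16 for NFIA, 9.54 and 7.405 for NFIB, and 4.735 for NfiX Mixed. Fzd8 had 4 libraries and folds of 2.82 to 5.74. Fzd2 and Wnt7b had 3 libraries, with folds of 2.98 to 4.27 and 3.48 to 6.56. Tcf7l1 had 3, and Fzd1 and Wnt3 had 2, all with folds of 2.64 to 3.57. Fzd7 thus had the highest fold of the 7 genes, in NfiB CD1.

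In 3 of the 4 Frizzled regions the peaks lay over 1 related stretch of the receptor. Of 10 Frizzled genes, Fzd1, Fzd2 and Fzd7 were the only 3 with a short palindrome in their coding sequence, and each of the 3 copies lay in a peak. The 3 stretches are shown because the site stands within a stretch of like sequence in each gene.
Fzd1: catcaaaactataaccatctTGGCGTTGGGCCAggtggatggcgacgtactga
Fzd2: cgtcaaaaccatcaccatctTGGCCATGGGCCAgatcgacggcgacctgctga
Fzd7: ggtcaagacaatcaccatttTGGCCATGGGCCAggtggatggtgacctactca
They lie at chr5:4756176-4756228 (Fzd1, minus strand), chr11:102605889-102605941 (Fzd2, plus strand) and chr1:59484123-59484175 (Fzd7, plus strand). The site began at codon position 2 in each. Identity over the 53 bases was 81.1% for Fzd1 and Fzd2, 79.2% for Fzd1 and Fzd7 and 81.1% for Fzd2 and Fzd7. The median distance to the summits was 14.5 bp in Fzd1, 21 bp in Fzd2 and 104 bp in Fzd7. Fzd8 held no short palindrome. These genes were compared after their regions had been seen.

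Axon guidance genes held regions in 6 of 36 cases (16.7%, median coding length 2.96 kb), against 3.37% of all genes with 2 to 4 kb of coding sequence. The 6 were Epha5, Epha7 and Epha3, receptors of ephrins, Dcc, the netrin receptor, Robo1, a Slit receptor, and Slit1, a Slit ligand. Epha5 had folds of 5.60 and 7.595 for NFIA, 9.62 and 10.9 for NFIB, and 4.08 and 9.09 for NFIX, lowest in NfiX CD1. Dcc had peaks in both NfiA and both NfiB libraries, with folds of 5.77 to 7.28, and none in NfiX. Robo1 had 3 libraries and Slit1 had 2, with folds of 3.43 to 6.01.

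The 3 Eph regions lay in the same exon of the gene family. Among 14 Eph receptor genes, 12 had a coding exon of 194 bases near the 3′ end of the coding sequence. In Epha3, Epha5 and Epha7 all 15 summits fell inside it, between bases 37 and 134. The exons are shown with TTGGCA, in either direction, and CAGCTG in capitals.
Epha3: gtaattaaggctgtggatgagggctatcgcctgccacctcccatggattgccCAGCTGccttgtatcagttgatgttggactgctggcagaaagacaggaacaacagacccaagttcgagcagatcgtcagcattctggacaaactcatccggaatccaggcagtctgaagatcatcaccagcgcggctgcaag
Epha5: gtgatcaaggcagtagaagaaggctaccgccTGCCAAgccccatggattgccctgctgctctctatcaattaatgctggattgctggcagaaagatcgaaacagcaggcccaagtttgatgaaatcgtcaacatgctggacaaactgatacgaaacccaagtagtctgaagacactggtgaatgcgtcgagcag
Epha7: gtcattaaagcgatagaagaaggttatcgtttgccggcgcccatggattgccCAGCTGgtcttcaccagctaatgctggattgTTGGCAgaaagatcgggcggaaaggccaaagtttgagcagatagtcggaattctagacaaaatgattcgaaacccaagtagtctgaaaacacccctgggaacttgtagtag
They lie at chr16:63566579-63566772 (Epha3, minus strand), chr5:84071044-84071237 (Epha5, minus strand), chr4:28961289-28961482 (Epha7, plus strand). Epha3 had folds of 3.66 to 6.41 in 5 libraries and Epha7 of 4.81 to 6.79 in 4. The exon of Epha5 was identical to that of Epha3 at 74.7% of bases and to that of Epha7 at 73.2%. Peaks of 4 libraries touched the exon of Epha4 (71.1% identical to Epha5) with no summit in it, and no peak touched the other 8. TTGGCA was present in Epha5 and Epha7 and absent from Epha3, and it also stood in the exons without a peak of Epha1, Ephb1, Ephb4 and Ephb6. TTGGCA was thus found in exons with and without a peak.

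Across all regions, related exons were searched as exons of equal length in another gene with at least 60% identical bases. Of 410 regions with an exon of 60 bp or more, 84 had such a relative, 164 exons in all. Regions lay in 5 of these 164 exons (3.05%), against 0.277% of all coding exons away from a TSS. The 164 were not limited by TSS distance and were found as relatives of exons with a region, so these shares are not matched. Any peak touched 10 of the 164 (6.10%), and no such share over all exons was computed. The 5 with a region were the Eph exons and those of Nfib and Nfic, so the 3.05% rests on 2 families. In the NFI family, coding exon 2 of Nfic and of Nfib, each of 532 bases, shared 76.7% of bases. Nfic had folds of 4.33 to 8.20 in 4 libraries with all 4 summits in the exon. Nfib had 3.31 to 5.15 in 3 libraries, 1 summit of which lay in the exon. The matching exon of Nfix touched a peak of NfiB Mixed only and that of Nfia touched none. Reads from near-identical copies may be split in mapping, as for Gm10801 and Gm10800 (90.2% identical), so regions there are uncertain.

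Genes of cytoskeletal scaffolds held regions in 6 of 28 cases (21.4%), and their median coding length was 7.59 kb. Of all genes with 4 to 8 kb of coding sequence 6.79% held a region, and of those over 8 kb 13.2%. No test was made of this difference. Ank3, which encodes the ankyrin of the axon initial segment, held 2 regions, and the first had folds of 5.82 in NfiB CD1 and, in the Mixed libraries of NFIA, NFIB and NFIX, 8.27, 13.6 and 5.895. Syne2 had peaks in all 6 libraries with folds of 7.09 to 11.7, and Sptan1, which encodes alpha spectrin, in 6 with 4.97 to 6.66. Syne1 had 4 libraries, as did Map1b, which encodes a microtubule-associated protein, and Sptbn4 held 2 regions of 3 and 2 libraries. Extracellular matrix genes held regions in 4 of 31 cases, Lama2, Lamb1, Fbn1 and Lama3, 3 of them laminin chains. This is 12.9% of a list with a median of 5.41 kb of coding sequence, and 6.79% of all genes with 4 to 8 kb held a region. Lama2 held 2 regions, of 4 libraries each.

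Chromatin regulators held regions in 4 of 47 cases (8.51%): Chd9, Chd7, Ankrd11 and Smarca2. Their median coding length was 5.48 kb, also in the class of 4 to 8 kb. Chd7, which encodes a chromodomain remodeller active in granule progenitors, held 2 regions. The one in exon 15 of 37 had folds of 7.12, 7.76, 11.5, 12.3, 5.41 and 9.89 in the 6 libraries. The second lay in its last coding exon, as did that of Chd9, with folds of 4.28 to 7.37 in 5 libraries. Among developmental transcription factors 4 of 44 (9.09%, median coding length 1.31 kb) held a region, against 1.62% of all genes with 1 to 2 kb. The 4 were Zeb2, Zeb1, Tcf4 and Sox5, in 2 to 4 libraries and with folds of 2.74 to 6.13. Among adhesion genes, Cntnap2 held the region described above and Tenm2, which encodes a teneurin, one of 2 libraries with folds of 5.67 and 4.215. Cadherins held 1 of 30, Fat2 (3.33%, median coding length 3.42 kb), near the 3.37% of all genes with 2 to 4 kb.

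Several other lists held few or none. Granule progenitor and Sonic hedgehog genes had 1 of 24, Meis1, which encodes a homeodomain factor (5 libraries, with folds up to 7.49). This is 4.17% of a list with a median coding length of 1.44 kb, against 1.62% of all genes with 1 to 2 kb. Voltage-gated channel genes had 1 of 27, Cacna1i. The median coding length of that list was 3.585 kb, and its share was near the 3.37% of all genes with 2 to 4 kb. Neuronal migration (21 genes), Notch pathway (20) and cell cycle (24) lists had 0. Marker lists of Purkinje cells (9 genes), Bergmann glia and astrocytes (11), oligodendrocyte lineage (10), microglia (7) and vascular cells (8) also had 0. Beside the 1.82% of all genes, a count of 0 in lists of this size says little.

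Host genes often held other NFI regions too. Of 398 host genes, counted with genes that overlap at the midpoint, 229 (57.5%) also had a region of the same rule outside coding exons, against 19.2% of all protein-coding genes. Gene length was not matched in this comparison. The nearest other region lay a median of 14.1 kb from a coding-exon region and 10.5 kb from another genic region.

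Coding exons were last set against noncoding exons of any gene under the same rule, 822 regions. Summit windows held the short palindrome in 16.6% of coding and 13.6% of noncoding cases, a difference of 3.04 ± 1.36 points that was higher in 6 of 6 libraries but did not pass after adjustment (n = 6; exact permutation p = 0.0312, Benjamini-Hochberg adjusted p = 0.0625). CAGCTG differed by 10.1 ± 4.90 points (28.4% against 18.4%, higher in 6 of 6 libraries; exact permutation adjusted p = 0.0625). The full site was lower in coding summits in 6 of 6 libraries, by −1.70 ± 2.65 points (exact permutation adjusted p = 0.0625). That mean rests largely on NfiX CD1 (−7.04 points), where 1 of 33 coding and 14 of 139 noncoding windows held the site. The other libraries differed by −0.26 to −1.48 points. Read as odds against the peak-free windows of each class, the sign turned for the short palindrome and CAGCTG. Their log2 odds ratios were lower in coding exons by −0.16 ± 0.15 and −0.26 ± 0.51, in 5 of 6 libraries each (exact permutation adjusted p = 0.125 and 0.338). The odds were also lower for the full site (−0.98 ± 0.91) and CAGATG (−0.56 ± 0.32), in 6 of 6 libraries each (exact permutation adjusted p = 0.0938 for both). For the single arm the difference was −0.13 ± 0.41, lower in 5 of 6 libraries (exact permutation adjusted p = 0.531). This comparison was added after the first values were seen.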

How the data were processed

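The authors deposited 1 peak list per library, 6 in all. For each peak the authors deposited its summit, its fold enrichment (a ratio to local background) and its p and q as −log10 values. The deposited integer score was not used. Per the submitters' processing notes, the build was mm10 and the tools were MACS2 2.1.0, SAMtools 1.4.1 and Bowtie2 2.2.6. How inputs, read filters and thresholds entered the calling is not given in the sources used here. Input samples (2) were not analysed here. Read totals are not in the lists, so the depth is unknown and no interval was computed.

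Peaks were merged with Python 3.11.15, numpy 2.4.6 and pandas 2.3.3. Coding exons, TSSs and exon sequences came from GENCODE release M21 (GRCm38). No genome sequence was used, so windows that crossed an exon edge were left out. Folds were ranked within each list, because lists were scaled separately. Differences of the 6 libraries were tested by flipping their signs in all ways (exact two-sided permutation, lowest p 0.0312, threshold 0.05), and motif tests were adjusted by Benjamini-Hochberg over 6 elements, with 0.5 added to each cell. The functions were tested on simulated data with known answers.

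The regions, gene lists (20) and tests were chosen with earlier results of these data known. Results of some lists are not reported here. Named genes are the 25 regions with the highest mean percentile of fold, regions of all 6 libraries with the full site, and up to 4 regions per gene list. Others named, among them the Eph, Frizzled and remaining Wnt, axon guidance and scaffold genes and the sequences shown, were chosen after their values were seen. Alternatives tried were the number of libraries, q, overlap, point, TSS distance, window width, control windows, added count, list length, a block by background and leaving out each library.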

Additional observations from a re-analysis of the deposited data

How the results depend on the processing

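Number of regions, strength and motif results were recomputed under other settings. The number of regions was 298 to 479 under 7 alternatives and 326 to 412 with 1 library left out. The percentile difference kept its direction under all 8 alternatives (−13.4 to −4.85) and with each library left out (−13.1 to −9.98). Basic coding annotation, TSSs by transcript type, regions of all 6 libraries and the split added count were chosen after seeing the data. The percentile difference missed the threshold against other regions of protein-coding genes, mostly intronic (−8.59, exact permutation p = 0.0625). With 5 libraries the smallest p is 0.0625, so no test can pass there. With 1 library left out the log2 odds ratios were 6.92 to 7.03 for the full site, 2.70 to 3.02 for the single arm, 5.84 to 6.28 for the short palindrome, 1.75 to 1.94 for CAGCTG, 1.403 to 1.644 for CAGATG and 4.08 to 4.53 for the spacer control. Window width, control windows and added counts kept the direction and the call of all but the control. The control reversed with windows 1 kb to each side as reference (−0.81) and with the added count split by window numbers (−0.17), where no summit window and at most 1 reference window per library held it. With windows 1 kb to each side, where fewer reference windows were left, the full site fell to 1.66 and the short palindrome from 6.08 to 3.97, while CAGCTG was 2.52 in place of 1.85.

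Differences in share between NFIB and each other factor changed sign under some settings. With 1 library left out, NfiB minus NfiA was −0.316 to 0.0128 points, NfiX minus NfiA −0.277 to −0.0464 and NfiX minus NfiB −0.21 to 0.155, and Mixed minus CD1 stayed at 0.127 to 0.211. With the 7497 strongest peaks of each list NfiX minus NfiB was 0.0600. With the background as a replicate block the differences were the same (−0.0527, −0.172 and −0.119; exact permutation p = 0.5, the smallest possible), which changed no call. The CD1 and Mixed labels pair libraries by background only, and no pairing by animal is given. Peak lists without read totals limit these results: a missing peak is not evidence of no binding.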

Other observations

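Host genes with 2 regions outside the named lists included Col6a3, which encodes a chain of collagen VI, and Cdc27, a subunit of the anaphase-promoting complex. Both Col6a3 regions had peaks in all 6 libraries and lay in coding exons 39 and 37 of 43. Cdc27 had regions of 5 and 2 libraries in exons 7 and 3 of 19. These genes were chosen after their values were seen, and no test was made.

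Of the 413 regions, 61 had no NFI arm, short palindrome or E-box in their coding part. The coding part was a median of 56.3% of a region, so sites in adjoining introns were not counted.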
